A study of Mus musculus with 8 samples.

Results

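The collagen genes, the matrix metalloproteinase (Mmp) genes and the genes of their tissue inhibitors (Timp) were measured in mouse liver. They were chosen by name alone: every probe whose gene name was Col, Mmp or Timp followed by the number of a chain or enzyme was taken, each gene was represented by its brightest probe, and a gene was kept if both arrays of some group read that probe well above background, in 1 or more of the 4 groups. Of 65 such genes on the array, 48 were kept: 34 of 40 collagen genes, 10 of 21 Mmp genes and 4 of 4 Timp genes. They stood among 17107 genes tested in the whole series.

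The study crossed strain and age: the groups were 11-week-old KKAy, 11-week-old C57BL/6J, 4-week-old KKAy and 4-week-old C57BL/6J mice, 4 in all, with 2 one-colour arrays of liver RNA in each. KKAy mice carry the yellow allele of the agouti gene on a KK background, and are labelled as diabetic, whereas C57BL/6J mice are labelled as normal. Strain background and agouti allele therefore differ together and cannot be told apart. Mice of all groups were on chow and were fasted for 13.5 h before sampling; the labels do not state their sex. Nothing in the labels says that the 2 samples of a group were separate mice, so a p-value reflects only how far these samples differed, and that spread may be technical.

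Collagens are triple-helical proteins of the extracellular matrix. The fibrillar types I, III and V form the fibres that accumulate in liver scars, type IV forms the sheet of basement membranes, and the remaining types sit on fibres, anchor cells or span cell membranes. Mmp enzymes are zinc proteases that cut collagens and other matrix proteins, and Timp proteins bind and block them. In liver, stellate cells and portal fibroblasts are the main sources of fibrillar collagen, Mmp2 and Timp1, whereas Mmp9 comes largely from leukocytes.

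Promoter sequences of 6 genes are shown because these genes stand in patterns described below. Col3a1, Col5a3, Col27a1 and Mmp7 passed the test of a strain difference that depended on age, in the fit on all 8 arrays. Col3a1 and Mmp7 no longer passed it when any 1 of the 8 arrays was left out. Col1a2 is a chain of type I collagen that was lower at 11 weeks. Mmp3 was well above background in C57BL/6J at 11 weeks and in no other group. Each run holds the 250 bases before the annotated start of the gene, 5' to 3' on the gene's own strand, from RefSeq on GRCm38.p6. Capitals mark matches on either strand to TATAAA, a start-site box, to the CCAAT box, to the GC box GGGCGG or to the AP-1 core TGANTCA.
Col3a1: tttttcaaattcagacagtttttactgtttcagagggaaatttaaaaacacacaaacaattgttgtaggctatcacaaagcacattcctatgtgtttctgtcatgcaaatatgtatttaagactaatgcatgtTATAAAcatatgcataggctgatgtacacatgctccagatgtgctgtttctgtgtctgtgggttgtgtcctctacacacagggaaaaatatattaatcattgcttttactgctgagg
Col1a2: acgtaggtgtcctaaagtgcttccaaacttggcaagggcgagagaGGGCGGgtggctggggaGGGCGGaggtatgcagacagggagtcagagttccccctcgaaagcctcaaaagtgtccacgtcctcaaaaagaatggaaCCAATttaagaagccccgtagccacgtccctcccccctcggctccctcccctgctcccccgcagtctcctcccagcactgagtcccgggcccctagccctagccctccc
Col5a3: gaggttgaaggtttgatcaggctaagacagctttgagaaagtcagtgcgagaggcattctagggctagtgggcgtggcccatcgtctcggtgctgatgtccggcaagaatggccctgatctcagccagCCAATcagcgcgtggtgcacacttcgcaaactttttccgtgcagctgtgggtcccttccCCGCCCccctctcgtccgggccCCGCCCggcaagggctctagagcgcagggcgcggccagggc
Col27a1: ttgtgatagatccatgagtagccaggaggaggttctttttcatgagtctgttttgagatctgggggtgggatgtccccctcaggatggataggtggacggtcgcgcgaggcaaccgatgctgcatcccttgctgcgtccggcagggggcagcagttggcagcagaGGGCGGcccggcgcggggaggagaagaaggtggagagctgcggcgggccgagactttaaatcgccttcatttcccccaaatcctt
Mmp3: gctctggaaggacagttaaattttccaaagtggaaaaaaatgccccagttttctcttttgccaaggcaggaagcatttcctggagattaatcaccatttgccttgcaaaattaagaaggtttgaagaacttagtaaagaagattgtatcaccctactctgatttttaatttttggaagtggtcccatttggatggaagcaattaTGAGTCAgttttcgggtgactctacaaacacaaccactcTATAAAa
Mmp7: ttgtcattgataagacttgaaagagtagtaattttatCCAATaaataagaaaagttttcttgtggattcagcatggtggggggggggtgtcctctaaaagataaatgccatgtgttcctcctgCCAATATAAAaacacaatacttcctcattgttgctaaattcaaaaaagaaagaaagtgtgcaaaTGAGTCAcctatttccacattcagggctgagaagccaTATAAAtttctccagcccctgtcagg
The windows lie at chr1:45311288-45311537 (plus strand) for Col3a1, chr6:4505368-4505617 (plus) for Col1a2, chr9:20815068-20815317 (minus) for Col5a3, chr4:63215162-63215411 (plus) for Col27a1, chr9:7445572-7445821 (plus) for Mmp3 and chr9:7691840-7692089 (plus) for Mmp7, the first of 2 Mmp7 entries. On mm8, the build of the file annotation, the probes that measured the 4 genes that passed the test of an age-dependent strain difference lie at chr1:45293290-45293349 (Col3a1), chr9:20520550-20520609 (Col5a3), chr4:62820812-62820871 (Col27a1) and chr9:7697311-7697370 (Mmp7).

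Of the 48 genes, 37 had an entry in the promoter table; Col1a1, Col2a1, Col4a3, Col5a2, Col12a1, Col14a1, Col22a1, Mmp2, Mmp9, Mmp17 and Mmp19 did not. TATAAA stood in the windows of 6 of the 37 genes and in 12.4% of all 32851 windows of the table. CCAAT stood in those of 16 genes (33.8% of all windows), GGGCGG in those of 23 (32.7%) and TGANTCA in those of 3, Col6a1, Mmp3 and Mmp7 (6.75%). In Mmp3 the TGANTCA match began at base -46 and a TATAAA match at base -7 from the annotated start. Mmp7 had TGANTCA at base -63, TATAAA at bases -26 and -123, and CCAAT at bases -213 and -127, the last sharing 1 base with the upstream TATAAA. Col3a1 had 1 TATAAA, at base -117, in a window of 35.2% GC, whereas the windows of Col1a2, Col5a3 and Col27a1 held GGGCGG and 62%, 62.8% and 59.6% GC, against a median of 52.4% over all windows. A match is a description of the letters in the window and is no evidence that a factor binds there.

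Levels are given as log2 processed signal relative to the 75th percentile of the array, so that 0 is the signal at that percentile, and a level says nothing about another gene's, since probes differ in brightness. The 75th percentile lay between 476.1 and 1192 units, and the share of spots well above background between 56.3% and 66.7%. Over all genes, the median of the SDs between replicate arrays was 0.22 in KKAy at 11 weeks, 0.13 in C57BL/6J at 11 weeks, 0.19 in KKAy at 4 weeks and 0.18 in C57BL/6J at 4 weeks. One slide held all 11-week arrays and the other all 4-week arrays, so the effects of age and of slide cannot be told apart. On both slides KKAy took positions 3 and 4 and C57BL/6J positions 1 and 2, so strain went with position. How the probes match the KKAy genome was not analysed here. In whole tissue, fewer cells of a type and less RNA per cell cannot be told apart.

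At 11 weeks, 16 of the 48 genes differed between KKAy and C57BL/6J at an adjusted p under 0.05 in limma, 7 higher and 9 lower in KKAy. This is 33.3% of them, against 21.5% of all genes tested (9.94% higher and 11.6% lower). At 4 weeks, 11 genes differed, 2 higher and 9 lower in KKAy, which is 22.9% against 15.4% of all genes (6.37% higher and 9.01% lower). The median log2 difference of the 48 genes was 0.04 at 11 weeks and 0.03 at 4 weeks, beside -0.0009 and 0.01 over all genes. Of the 9 lower at 11 weeks, Mmp3 and Col9a1 entered the set only through C57BL/6J at 11 weeks, the higher group, so that a difference followed from the filter; without them 7 were higher and 7 lower. These counts still hold Col20a1, which entered only through C57BL/6J groups, and Col17a1, which entered only through KKAy groups. Mmp9 also entered only through C57BL/6J groups, and Col4a5 only through 4-week groups. The filter thus leaned towards the direction of the calls of these genes. The 2 groups did not overlap for 14 genes higher and 16 lower in KKAy at 11 weeks, against 28.2% higher and 29% lower of all genes, and for 12 higher and 18 lower at 4 weeks, against 23.1% and 25.5% of all genes. In either direction these shares came to 57.2% of all genes at 11 weeks and 48.6% at 4 weeks.

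Between ages, most of the genes that differed were lower at 11 weeks. In KKAy 16 genes passed the test, 3 higher and 13 lower at 11 weeks, or 33.3% against 18.6% of all genes (7.91% higher and 10.7% lower). In C57BL/6J 10 passed, 1 higher and 9 lower, or 20.8% against 8.36% of all genes (1.9% higher and 6.46% lower); the 1 higher was Mmp3, again through the filter. The median log2 difference between ages was -0.25 in KKAy and -0.30 in C57BL/6J, beside 0.02 and 0.05 over all genes. The ages did not overlap for 7 genes higher and 23 lower at 11 weeks in KKAy (51.7% of all genes, 25.8% higher and 25.9% lower), and for 9 higher and 27 lower in C57BL/6J (49.2% of all genes, 25.4% higher and 23.8% lower). Of the 48 genes, 9 passed as lower at 11 weeks in both strains, against 3.88% of all genes tested: Col1a1, Col1a2, Col3a1, Col4a5, Col5a1, Col5a2, Col6a2, Col6a3 and Mmp2. Col4a5 entered only through 4-week groups, so the filter favoured its calls, which these counts still hold.

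**Figure D1:**
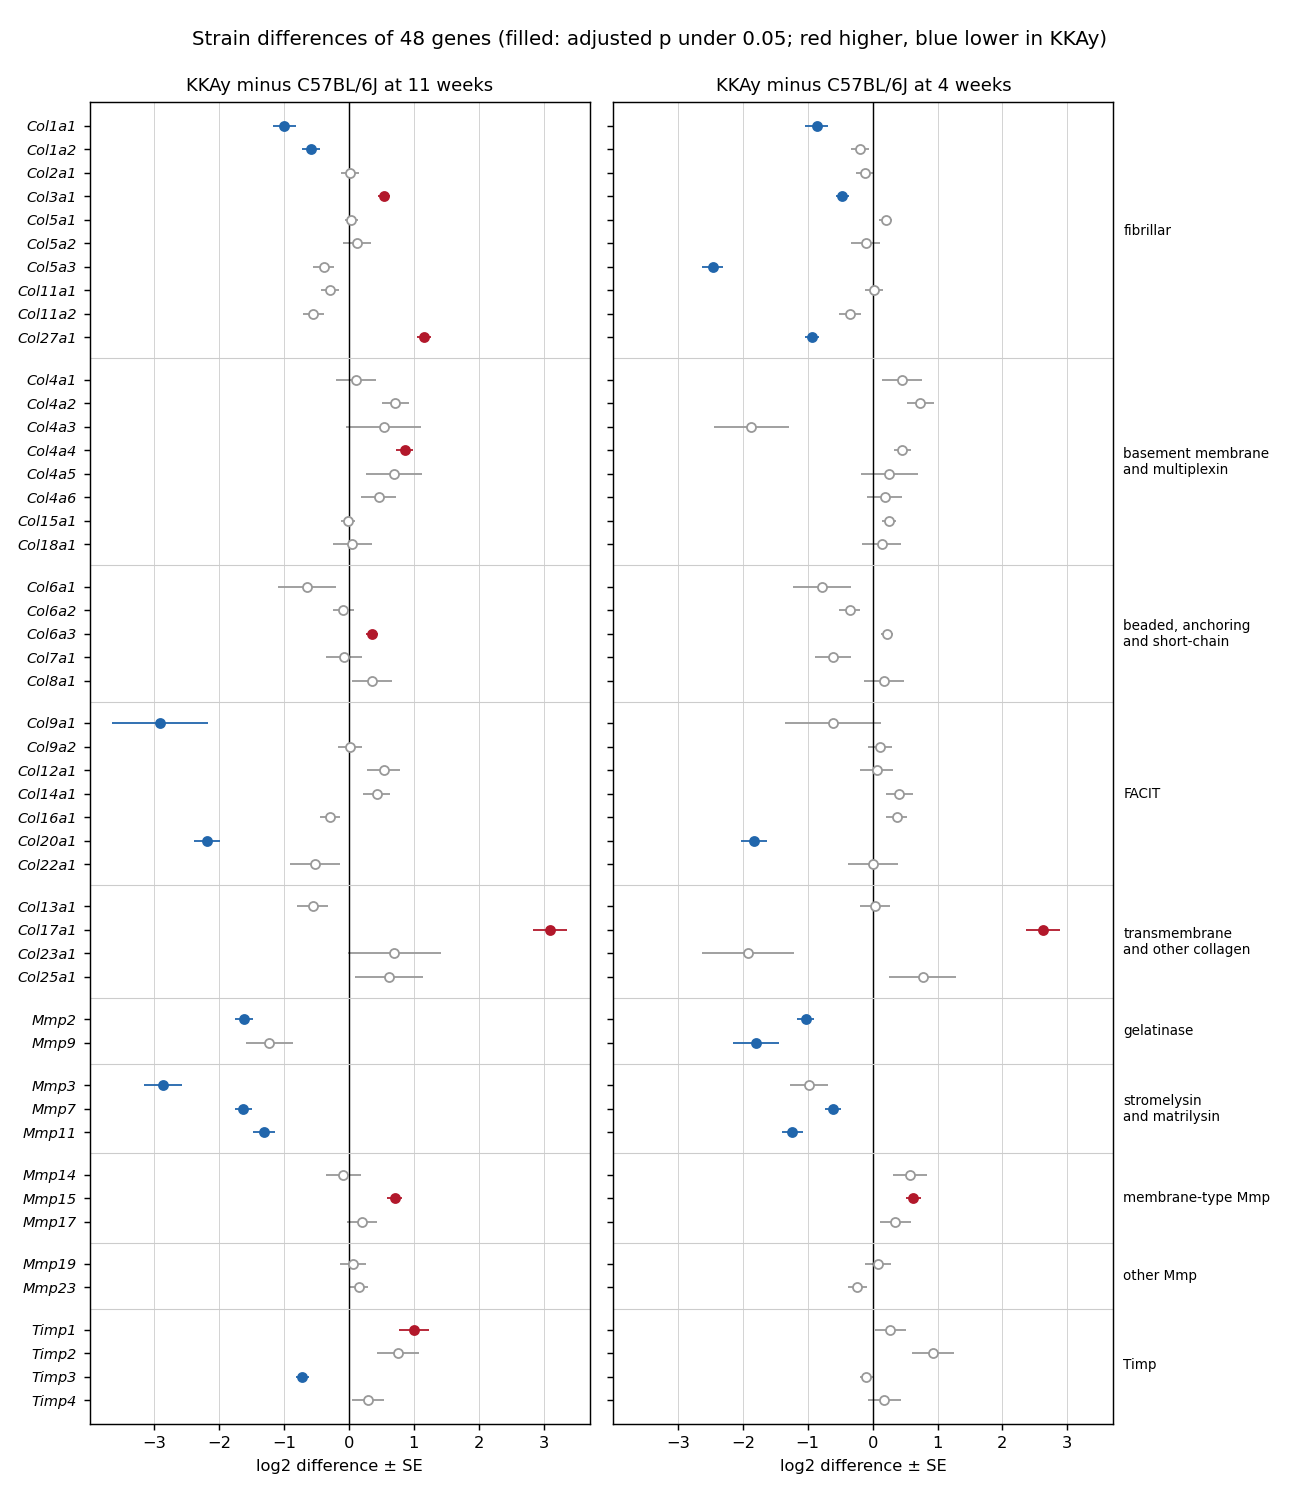
Log2 difference, KKAy minus C57BL/6J, of the 48 genes by role at 11 weeks (left) and 4 weeks (right). Bars are standard errors of the fit on 8 arrays, and filled points passed an adjusted p of 0.05. In KKAy, 7 genes stood higher and 9 lower at 11 weeks, and 2 higher and 9 lower at 4 weeks.

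Fibrillar collagens showed the largest number of differences between ages. Of the 10 measured, 7 passed in KKAy, 2 higher and 5 lower at 11 weeks, and 5 passed in C57BL/6J, all lower. This is 70% in KKAy and 50% in C57BL/6J, against 18.6% and 8.36% of all genes. The median difference between ages of the group was -1.01 in KKAy and -0.82 in C57BL/6J. Between strains, 2 were higher and 2 lower in KKAy at 11 weeks, and 4 were lower at 4 weeks. This is 40% at each age, against 21.5% of all genes at 11 weeks and 15.4% at 4 weeks.

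Col1a1, the alpha 1 chain of type I collagen, had levels of -2.55 and -2.15 in KKAy at 11 weeks, against -1.44 and -1.26 in C57BL/6J at 11 weeks, and of -0.13 and 0.15 in KKAy at 4 weeks, against 0.83 and 0.92 in C57BL/6J at 4 weeks. No 2 groups overlapped, and at each age both KKAy arrays were below both C57BL/6J arrays. The log2 difference between ages was -2.36 ± 0.18 (SE) in KKAy (adjusted p = 0.000971) and -2.22 in C57BL/6J (adjusted p = 0.00193). The strain difference was -0.996 ± 0.18 (SE) at 11 weeks (adjusted p = 0.0123) and -0.86 at 4 weeks (adjusted p = 0.0251). A dimmer second probe of Col1a1 gave differences of -0.93, -1.27, -1.86 and -2.20 for the same 4 comparisons in the order 11-week strain, 4-week strain, KKAy age and C57BL/6J age, none past the threshold. With all probes averaged, both strain calls of Col1a1 were lost. The 4-week call was also lost with the 4 arrays of that age alone.

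Col1a2, the other chain of type I collagen, had levels of -0.17 and 0.15 in KKAy and 0.54 and 0.62 in C57BL/6J at 11 weeks, and of 1.79 and 1.89 in KKAy and 1.96 and 2.10 in C57BL/6J at 4 weeks. The ages stood far apart in both strains, while the strains stood close at 4 weeks. The difference between ages was -1.85 ± 0.14 (SE) in KKAy (adjusted p = 0.000972) and -1.46 in C57BL/6J (adjusted p = 0.00314). Between strains it was -0.58 at 11 weeks (adjusted p = 0.0328) and -0.19 at 4 weeks (adjusted p = 0.485), and whether the 2 strain differences differed was not resolved by the test of the interaction (-0.40, adjusted p = 0.391).

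Col3a1, the single chain of type III collagen, had levels of 0.45 and 0.34 in KKAy at 11 weeks, against -0.14 and -0.16 in C57BL/6J at 11 weeks, and of 2.44 and 2.39 in KKAy at 4 weeks, against 2.88 and 2.88 in C57BL/6J at 4 weeks. KKAy arrays were thus the higher ones at 11 weeks and the lower ones at 4 weeks. Between strains it differed by 0.54 ± 0.10 (SE) at 11 weeks (adjusted p = 0.0123) and -0.47 at 4 weeks (adjusted p = 0.0253). Col3a1 had the largest fall between ages among the 48 genes in C57BL/6J, where the difference was -3.03 (adjusted p = 0.00024), against -2.03 in KKAy (adjusted p = 0.000236).

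**Figure D2:**
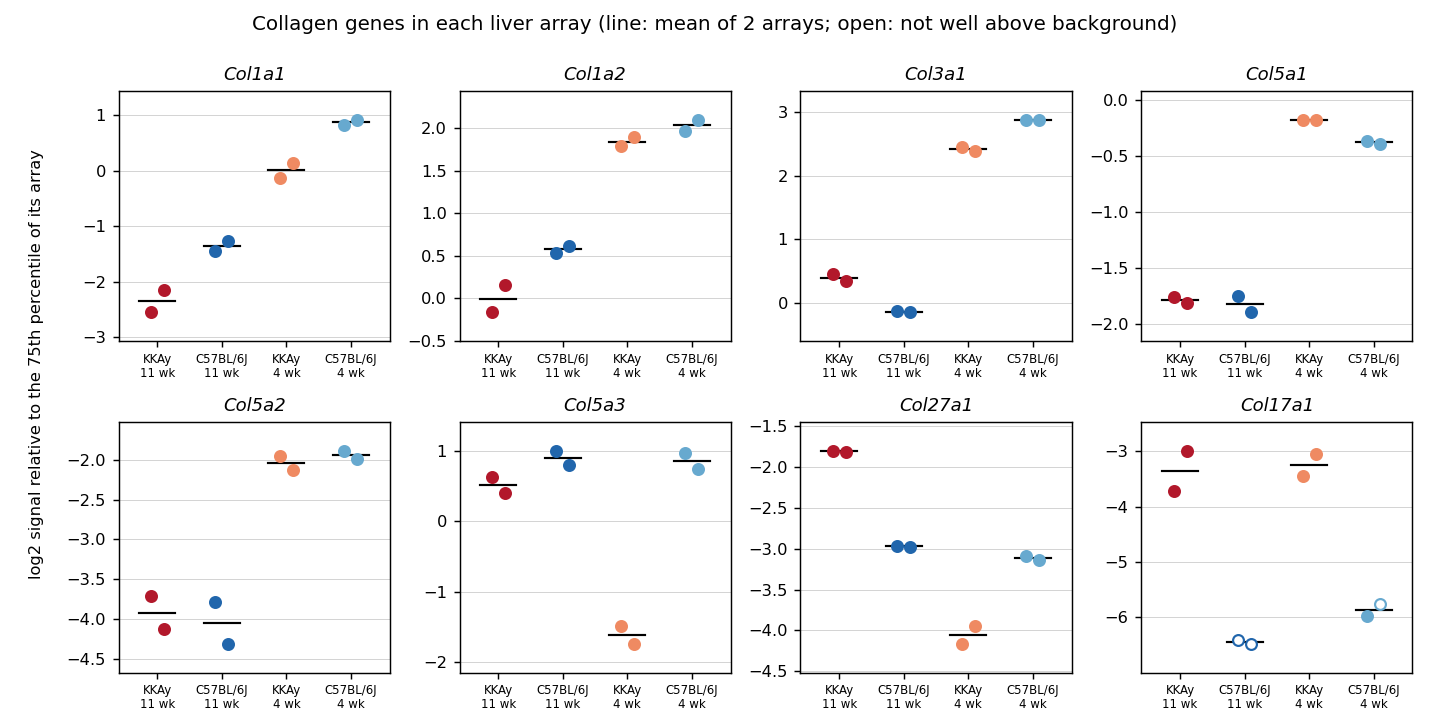
Levels of 8 collagen genes on each of the 8 arrays, as log2 processed signal relative to the 75th percentile of the array, for KKAy and C57BL/6J at 11 and 4 weeks; lines are means of 2 arrays, and open points were not well above background. Col1a1, Col1a2, Col3a1, Col5a1 and Col5a2 were lower at 11 weeks in both strains, Col5a3 stood apart on the 2 KKAy arrays at 4 weeks, between -1.74 and -1.49, and Col17a1 was higher in KKAy at both ages.

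The 3 chains of type V collagen, a minor fibre component that sets fibre diameter, did not move together. Col5a1 had levels of -1.76 and -1.81 in KKAy and -1.75 and -1.90 in C57BL/6J at 11 weeks, and of -0.18 and -0.18 in KKAy and -0.36 and -0.40 in C57BL/6J at 4 weeks. Col5a2 had levels of -3.71 and -4.13 in KKAy and -3.79 and -4.31 in C57BL/6J at 11 weeks, and of -1.96 and -2.13 in KKAy and -1.89 and -1.99 in C57BL/6J at 4 weeks. Both were lower at 11 weeks on every array of either strain. The difference between ages of Col5a1 was -1.61 in KKAy (adjusted p = 0.000577) and -1.44 in C57BL/6J (adjusted p = 0.00138), and that of Col5a2 was -1.88 in KKAy (adjusted p = 0.0041) and -2.11 in C57BL/6J (adjusted p = 0.00419). Neither differed between strains past the threshold. A second, dimmer probe of Col5a1 gave differences between ages of -0.13 in KKAy and -0.26 in C57BL/6J, neither past the threshold.

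Col5a3 had levels of 0.63 and 0.39 in KKAy at 11 weeks, against 0.999 and 0.80 in C57BL/6J at 11 weeks, and of -1.49 and -1.74 in KKAy at 4 weeks, against 0.96 and 0.74 in C57BL/6J at 4 weeks. The 2 KKAy arrays at 4 weeks were far below the other 6. KKAy minus C57BL/6J came to -0.39 ± 0.16 (SE) at 11 weeks (adjusted p = 0.148) and -2.47 at 4 weeks (adjusted p = 0.000522). In KKAy, Col5a3 was higher at 11 weeks by 2.13 (adjusted p = 0.000961), a fold of 4.37, while in C57BL/6J the difference was 0.05 (adjusted p = 0.921).

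Col27a1, which encodes a fibrillar collagen known mainly from cartilage, had levels of -1.80 and -1.81 in KKAy at 11 weeks, against -2.97 and -2.97 in C57BL/6J at 11 weeks, and of -4.16 and -3.95 in KKAy at 4 weeks, against -3.09 and -3.14 in C57BL/6J at 4 weeks. KKAy was the highest group at 11 weeks and the lowest at 4 weeks, with C57BL/6J between them at both ages. The strain difference was 1.16 ± 0.11 (SE) at 11 weeks (adjusted p = 0.0013) and -0.94 at 4 weeks (adjusted p = 0.00344), and the difference between ages was 2.25 in KKAy (adjusted p = 0.000261) and 0.15 in C57BL/6J (adjusted p = 0.562). A second probe of Col27a1 gave 0.71 at 11 weeks, -0.19 at 4 weeks, 1.28 between ages in KKAy and 0.38 in C57BL/6J, the same signs at smaller size and none past the threshold. The 4-week call was lost with all probes averaged (-0.56, adjusted p = 0.165), with normexp background correction, which draws dim signals together (-0.27, adjusted p = 0.417), and with scaling to spike-in probes (-0.59, adjusted p = 0.0973).

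Col2a1, the chain of cartilage type II collagen, had 2 probes that disagreed. On the brighter one, levels lay between -1.88 and -1.50 on all 8 arrays and no comparison passed. On the other, levels were -3.27 and -3.46 in KKAy and -3.82 and -3.88 in C57BL/6J at 11 weeks, and -1.28 and -1.50 in KKAy and -1.04 and -1.04 in C57BL/6J at 4 weeks, with differences between ages of -1.98 in KKAy (adjusted p = 0.000663 over probes) and -2.81 in C57BL/6J (adjusted p = 0.000489 over probes). This second probe was also higher in KKAy at 11 weeks (0.49, adjusted p = 0.0424 over probes). The 2 probes share 40 bases on mm8, at chr15:97804088-97804147 for the second and chr15:97804108-97804167 for the brighter one, and the second was spotted 10 times on each array against 1 time for the brighter. Whether both probes read Col2a1 RNA could not be checked without their sequences, so neither set of values is taken as the level of Col2a1. Col11a1 and Col11a2, chains of another minor cartilage fibre, passed in no comparison.

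**Figure D3:**
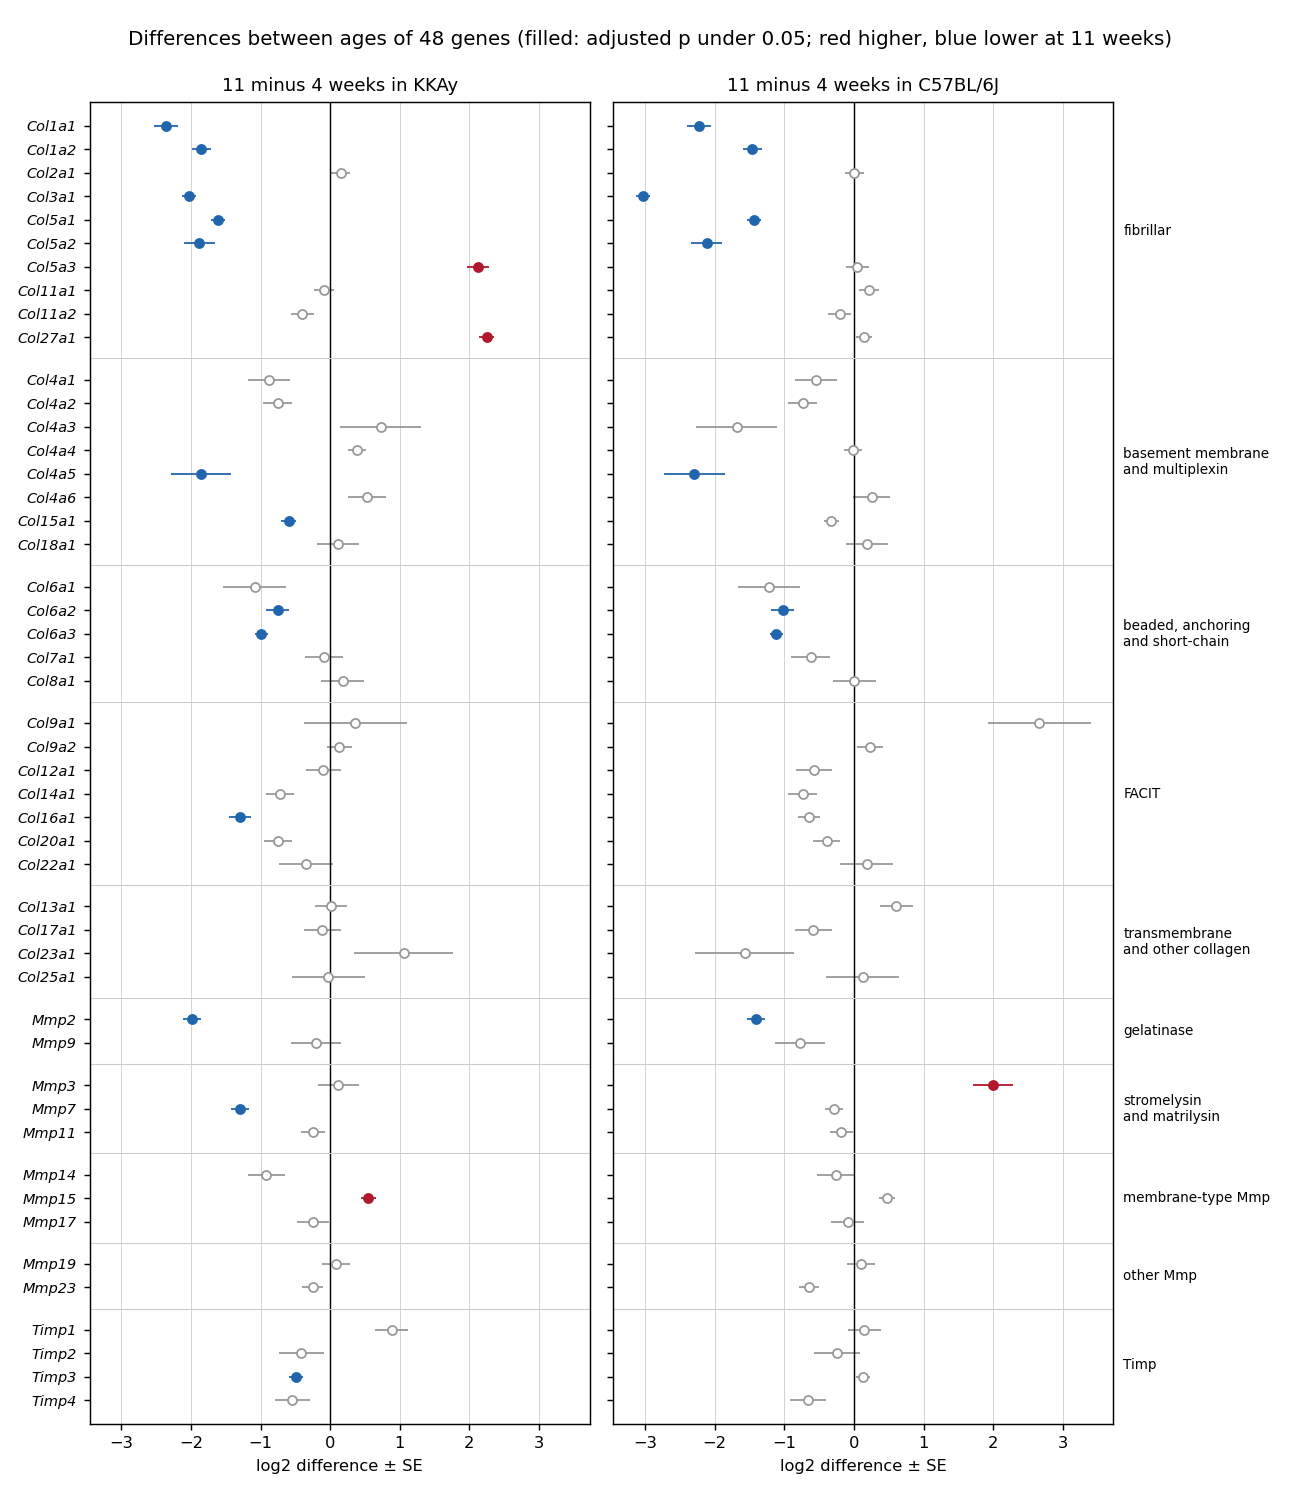
Log2 difference, 11 minus 4 weeks, of the 48 genes by role in KKAy (left) and C57BL/6J (right). Bars are standard errors, and filled points passed an adjusted p of 0.05. In KKAy 3 genes were higher and 13 lower at 11 weeks, and in C57BL/6J 1 was higher and 9 lower.

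The call for Col1a1 between strains at 11 weeks was lost without either C57BL/6J 11-week array (adjusted p = 0.0598 and 0.087), that for Col3a1 without either of these or KKAy 11-week replicate 1 (0.0586 to 0.0925), and that for Col1a2 without any array except KKAy 11-week replicate 2 (0.0585 to 0.169). At 4 weeks, the calls for Col1a1 (0.0566 to 0.126) and Col3a1 (0.0748 to 0.143) were lost without any array except the 2 KKAy 11-week arrays, whereas the differences between ages in Col1a1, Col1a2, Col3a1, Col5a1 and Col5a2 passed with any single array left out.

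Basement membrane collagens numbered 8, counting type IV chains and the multiplexins Col15a1 and Col18a1. Between strains, 1 was higher in KKAy at 11 weeks (12.5%, against 21.5% of all genes called) and 0 passed at 4 weeks, where 3 had an unadjusted p under 0.05. Between ages, 2 were lower at 11 weeks in KKAy (25%, against 18.6% of all genes called) and 1 in C57BL/6J (12.5%, against 8.36%). Col4a5, which entered only through 4-week groups, was 1 of the 2 in KKAy and the 1 in C57BL/6J. The annotated starts of Col4a1 and Col4a2, which encode the common chains of type IV collagen, lie 21 bases apart on opposite strands.

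Col4a1 had levels of 1.01 and 0.34 in KKAy and 0.72 and 0.39 in C57BL/6J at 11 weeks, and of 1.80 and 1.30 in KKAy and 1.31 and 0.89 in C57BL/6J at 4 weeks. Col4a2 had levels of 1.43 and 0.98 in KKAy and 0.64 and 0.33 in C57BL/6J at 11 weeks, and of 2.10 and 1.81 in KKAy and 1.33 and 1.11 in C57BL/6J at 4 weeks. For both genes replicate 1 read higher than replicate 2 in all 4 groups, and for Col4a1 the strains overlapped at 11 weeks. Col4a2 stood higher in KKAy on every array of either age, by 0.72 at 11 weeks (adjusted p = 0.0611) and 0.73 at 4 weeks (adjusted p = 0.0736), which did not pass. On second probes, adjusted over all probes, Col4a1 was lower at 11 weeks in KKAy (-1.59, adjusted p = 0.0187), and Col4a2 was higher in KKAy at 4 weeks (0.77, adjusted p = 0.0385) and lower at 11 weeks in KKAy (-0.84, adjusted p = 0.0279).

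Col4a4, a chain of the type IV network known from the kidney filter, had levels of 0.38 and 0.49 in KKAy at 11 weeks, against -0.38 and -0.46 in C57BL/6J at 11 weeks. It was higher in KKAy by 0.86 ± 0.13 (SE; adjusted p = 0.00721), a call lost without either C57BL/6J 11-week array (adjusted p = 0.0514 and 0.0612). At 4 weeks its levels were -0.03 and 0.13 in KKAy and -0.53 and -0.27 in C57BL/6J (0.45, adjusted p = 0.0752). Col15a1, whose product joins basement membrane to underlying fibres, was lower at 11 weeks in KKAy (log2 difference -0.59, adjusted p = 0.0164), a call lost without KKAy 11-week replicate 1 or either KKAy 4-week array (0.0651 to 0.0969).

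Col4a5, the X-linked chain that partners the Col4a4 product, had levels of -5.73 and -6.10 in KKAy and -6.25 and -6.97 in C57BL/6J at 11 weeks, and of -3.67 and -4.45 in KKAy and -3.85 and -4.80 in C57BL/6J at 4 weeks. It was well above background on the 4 arrays of 4-week mice and on none of 11-week mice. Col4a5 thus passed the filter only through the 4-week groups. The filter favoured a fall between ages, and the p-values below do not allow for that. The fall between ages was at least 2.1-fold in KKAy, with means of -5.92 at 11 weeks and -4.06 at 4 weeks (adjusted p = 0.036), and at least 2.64-fold in C57BL/6J, with means of -6.61 at 11 weeks and -4.32 at 4 weeks (adjusted p = 0.0318). These bounds compare the brighter group's mean with, on each array of the dim group, either the probe's own signal or the dimmest signal that still counted as well above background, whichever was higher. The call in KKAy was lost without any array except the 2 C57BL/6J 4-week arrays (0.0577 to 0.151), and that in C57BL/6J without either C57BL/6J 11-week array or C57BL/6J 4-week replicate 1 (0.0907 to 0.182). With normexp both were lost (-0.33, adjusted p = 0.12, in KKAy and -0.25, adjusted p = 0.352, in C57BL/6J).

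Col18a1, the precursor of endostatin, made by hepatocytes, had levels between 6.74 and 7.56 over the 8 arrays, and its differences lay between 0.05 and 0.19 in the strain and age comparisons. Among the chains of type VI collagen, which forms beaded filaments around cells, Col6a2 and Col6a3 were lower at 11 weeks in both strains. Col6a3 had levels of -1.62 and -1.57 in KKAy and -1.97 and -1.93 in C57BL/6J at 11 weeks, and of -0.60 and -0.62 in KKAy and -0.84 and -0.82 in C57BL/6J at 4 weeks. Its difference between ages was -0.99 ± 0.09 (SE) in KKAy (adjusted p = 0.00194) and -1.12 in C57BL/6J (adjusted p = 0.00211). The strain difference of Col6a3 at 11 weeks, 0.35 (adjusted p = 0.0431), was lost without any 1 of the 8 arrays (0.0856 to 0.229).

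Col6a2 differed between ages by -0.76 in KKAy (adjusted p = 0.0273) and -1.02 in C57BL/6J (adjusted p = 0.0171). The first call was lost without any array except the 2 C57BL/6J 4-week arrays (0.0517 to 0.131) and the second without any of the 4 C57BL/6J arrays (0.0539 to 0.126), and a second probe of Col6a2 gave -1.02 and -1.05, neither past the threshold. Col6a1 did not pass between ages: its levels were -2.33 and -3.11 in KKAy and -1.74 and -2.41 in C57BL/6J at 11 weeks, and -1.23 and -2.04 in KKAy and -0.48 and -1.23 in C57BL/6J at 4 weeks, with SDs between replicates of 0.47 to 0.58; replicate 1 read higher than replicate 2 in all 4 groups. Col7a1, the anchoring fibril collagen of skin, and Col8a1, a short-chain collagen of vessel walls, passed in no comparison.

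Among the 7 FACIT collagens, which sit on the surface of fibres, 2 were lower in KKAy at 11 weeks (Col20a1, and Col9a1 through the filter), 1 was lower at 4 weeks, and 1, Col16a1, was lower at 11 weeks in KKAy (-1.30, adjusted p = 0.00428). Called shares were 28.6% between strains at 11 weeks, 14.3% at 4 weeks and 14.3% between ages in KKAy. Over all genes they were 21.5%, 15.4% and 18.6%. The strain shares rest on Col9a1 and Col20a1 alone, which entered only through C57BL/6J groups, their higher side. The filter thus leaned towards these calls, and the p-values of Col20a1 do not allow for that. Col20a1 had levels of -6.82 and -6.21 in KKAy and -4.35 and -4.32 in C57BL/6J at 11 weeks, and of -5.78 and -5.76 in KKAy and -3.91 and -3.97 in C57BL/6J at 4 weeks. It was well above background on all C57BL/6J arrays and on no KKAy array. It was at least 1.74-fold lower in KKAy at 11 weeks, with means of -6.52 in KKAy and -4.34 in C57BL/6J (adjusted p = 0.00119), and at least 2.48-fold lower at 4 weeks, with means of -5.77 in KKAy and -3.94 in C57BL/6J (adjusted p = 0.0029). With normexp both calls were lost, at -0.19 (adjusted p = 0.661) at 11 weeks and -0.28 (adjusted p = 0.519) at 4 weeks.

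Col9a1, a chain of the cartilage collagen type IX, was well above background in C57BL/6J at 11 weeks alone, with levels of -7.17 and -6.43 in KKAy at 11 weeks, against -2.91 and -4.87 in C57BL/6J at 11 weeks, and of -7.80 and -6.52 in KKAy at 4 weeks, against -6.85 and -6.26 in C57BL/6J at 4 weeks. The 2 C57BL/6J arrays at 11 weeks had an SD of 1.38. Col9a1 was at least 2.36-fold lower in KKAy at 11 weeks, with means of -6.80 in KKAy and -3.89 in C57BL/6J. Since it passed the filter only through C57BL/6J at 11 weeks, this is a description without a test.

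Col17a1, a transmembrane collagen of hemidesmosomes, had the largest rise in KKAy among the 48 genes at both ages. Its levels were -3.71 and -2.99 in KKAy and -6.41 and -6.48 in C57BL/6J at 11 weeks, and -3.44 and -3.04 in KKAy and -5.97 and -5.75 in C57BL/6J at 4 weeks. The strains did not overlap, and the probe was well above background on all 4 KKAy arrays and on 1 of 4 C57BL/6J arrays. Col17a1 entered the set only through KKAy groups, so the filter favoured a rise, and the p-values do not allow for that. It was at least 5.19-fold higher in KKAy at 11 weeks, with means of -3.35 in KKAy and -6.45 in C57BL/6J (adjusted p = 0.000938). At 4 weeks, where 1 of 2 C57BL/6J arrays measured it, the difference was 2.62 ± 0.26 (SE; adjusted p = 0.00219). With normexp it was 0.80 at 11 weeks (adjusted p = 0.135) and 1.15 at 4 weeks (adjusted p = 0.0574). The other transmembrane collagens, Col13a1, Col23a1 and Col25a1, passed in no comparison.

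The Mmp genes that passed between strains were lower in KKAy, apart from Mmp15. Of the 10 measured, 1 was higher and 4 were lower in KKAy at each age, Mmp3 being 1 of the 4 at 11 weeks. This is 50% at each age, against 21.5% of all genes at 11 weeks and 15.4% at 4 weeks. The median strain difference was -0.65 at 11 weeks and -0.42 at 4 weeks. Mmp3 entered only through C57BL/6J at 11 weeks, and Mmp9, 1 of the 4 lower at 4 weeks, only through C57BL/6J groups. The filter thus leaned towards these calls, and the shares and medians still hold both genes. The 3 collagenases on the array (Mmp1a, Mmp8 and Mmp13), which make the first cut in fibrillar collagen, were well above background on 0 of 8 arrays. Mmp24 and Mmp10 fell just outside the filter, with 4 and 3 arrays well above background but in no group both, and Col9a1, Col23a1 and Mmp3 just inside it, with 2 arrays each.

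Mmp2, gelatinase A, which degrades denatured collagen and type IV collagen, had levels of -4.57 and -4.41 in KKAy and -2.76 and -2.99 in C57BL/6J at 11 weeks, and of -2.44 and -2.56 in KKAy and -1.39 and -1.55 in C57BL/6J at 4 weeks. No groups of the same age or of the same strain overlapped. The difference between ages was -1.99 ± 0.13 (SE) in KKAy (adjusted p = 0.000713) and -1.41 in C57BL/6J (adjusted p = 0.00313). The strain difference at 11 weeks was -1.61 (adjusted p = 0.000848), and at 4 weeks -1.03 (adjusted p = 0.00496). With spike-in scaling the 4-week call was lost (-0.68, adjusted p = 0.0693), and with normexp the 11-week difference was smaller (-0.55, adjusted p = 0.0334). Whether the 2 strain differences differed was not resolved (interaction -0.58, adjusted p = 0.182).

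Mmp9, gelatinase B, was well above background in C57BL/6J alone, so it passed the filter only through C57BL/6J groups. The filter thus favoured a lower level in KKAy, and the p-values of Mmp9 do not allow for that. Its levels were -5.44 and -6.47 in KKAy and -4.49 and -4.96 in C57BL/6J at 11 weeks, and -5.64 and -5.86 in KKAy and -3.81 and -4.09 in C57BL/6J at 4 weeks. At 4 weeks it was at least 2.45-fold lower in KKAy, with means of -5.75 in KKAy and -3.95 in C57BL/6J (adjusted p = 0.0228), a call lost without any of the 4 arrays of that age (0.0792 to 0.12). With normexp it was lost (-0.30, adjusted p = 0.343). At 11 weeks Mmp9 was at least 1.33-fold lower, which did not pass (adjusted p = 0.0612). A second probe of Mmp9, spotted 10 times, was lower in KKAy at 11 weeks (-0.95, adjusted p = 0.0155 over probes) and at 4 weeks (-1.72, adjusted p = 0.00248 over probes).

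**Figure D4:**
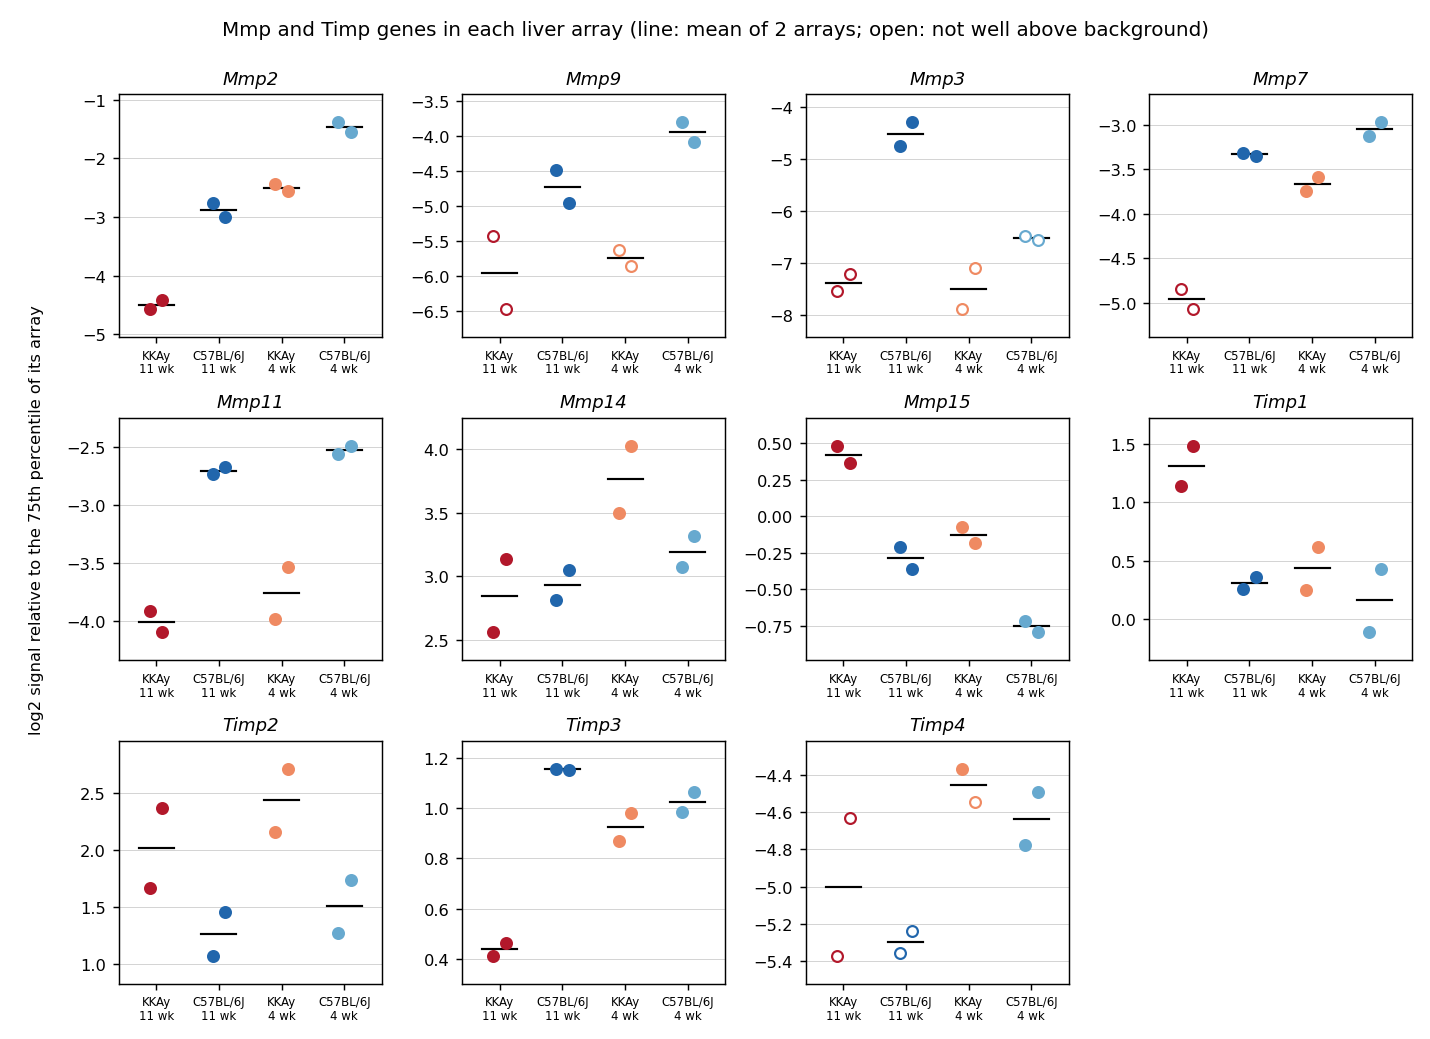
Levels of 7 Mmp and 4 Timp genes on each of the 8 arrays, as log2 processed signal relative to the 75th percentile of the array, for KKAy and C57BL/6J at 11 and 4 weeks; lines are means of 2 arrays, and open points were not well above background. Mmp2, Mmp7 and Mmp11 were lower and Mmp15 higher in KKAy at both ages, and Timp1 was highest on the 2 KKAy arrays at 11 weeks, at 1.14 and 1.49.

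The stromelysin Mmp11 and the matrilysin Mmp7 were lower in KKAy at both ages, while the stromelysin Mmp3 was near the limit of the arrays. Mmp3, a broad matrix protease that also activates other Mmp precursors, had levels of -7.54 and -7.23 in KKAy and -4.75 and -4.30 in C57BL/6J at 11 weeks, and of -7.89 and -7.11 in KKAy and -6.49 and -6.56 in C57BL/6J at 4 weeks. It was well above background on the 2 C57BL/6J arrays at 11 weeks and on no other. Mmp3 was at least 1.53-fold lower in KKAy at 11 weeks, with means of -7.38 in KKAy and -4.52 in C57BL/6J. In C57BL/6J it was at least 2.45-fold higher at 11 weeks, with means of -4.52 at 11 weeks and -6.52 at 4 weeks. Both differences set the 1 group through which Mmp3 passed the filter against another, so they are descriptions without a test.

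Mmp7, a small Mmp made by epithelia and without the hemopexin domain of most Mmp proteins, had levels of -4.85 and -5.07 in KKAy at 11 weeks, against -3.32 and -3.35 in C57BL/6J at 11 weeks, and of -3.75 and -3.59 in KKAy at 4 weeks, against -3.13 and -2.97 in C57BL/6J at 4 weeks. The 2 KKAy arrays at 11 weeks were the lowest and were not well above background. Mmp7 was at least 3.03-fold lower in KKAy at 11 weeks, with means of -4.96 in KKAy and -3.33 in C57BL/6J (adjusted p = 0.000727). At 4 weeks the difference was -0.61 ± 0.13 (SE; adjusted p = 0.0265), lost without any array except the 2 KKAy 11-week arrays (0.0709 to 0.144). In KKAy Mmp7 was at least 2.41-fold lower at 11 weeks, with means of -4.96 at 11 weeks and -3.67 at 4 weeks (adjusted p = 0.00237), and in C57BL/6J the difference between ages was -0.28 (adjusted p = 0.299).

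Mmp11, an unusual stromelysin that furin activates inside the cell, had levels of -3.91 and -4.10 in KKAy and -2.73 and -2.67 in C57BL/6J at 11 weeks, and of -3.98 and -3.54 in KKAy and -2.56 and -2.48 in C57BL/6J at 4 weeks. All 4 KKAy arrays were below all 4 C57BL/6J arrays. Strains differed by -1.30 ± 0.17 (SE) at 11 weeks (adjusted p = 0.00401) and -1.24 at 4 weeks (adjusted p = 0.00579), and the 2 differed by -0.07 (adjusted p = 0.946). With normexp the difference was -0.58 at 11 weeks (adjusted p = 0.0977) and -0.56 at 4 weeks (adjusted p = 0.132), neither past the threshold. Normexp also ended the calls for Mmp7 at 11 weeks (-0.37, adjusted p = 0.319), at 4 weeks (-0.12, adjusted p = 0.791) and between ages in KKAy (-0.23, adjusted p = 0.56). Over the 5 comparisons it ended 22 of the 57 calls of the 48 genes, those of Mmp3, Col9a1, Col6a2, Col15a1 and Col6a3 (at 11 weeks) among them. Spike-in scaling ended 12, among them Col1a2 (-0.46, adjusted p = 0.205) and Timp3 (-0.59, adjusted p = 0.0851) between strains at 11 weeks, Col1a1 (-0.51, adjusted p = 0.169), Col3a1 (-0.11, adjusted p = 0.672) and Mmp7 (-0.26, adjusted p = 0.359) at 4 weeks, and Mmp15 between ages in KKAy (0.35, adjusted p = 0.31).

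Of the membrane-type enzymes, Mmp14, which activates the Mmp2 precursor at the cell surface with the help of Timp2, had levels of 2.56 and 3.13 in KKAy and 2.81 and 3.05 in C57BL/6J at 11 weeks, and of 3.50 and 4.03 in KKAy and 3.07 and 3.31 in C57BL/6J at 4 weeks. The strains overlapped at 11 weeks, and no comparison passed; the nearest was the difference between ages in KKAy (-0.91, adjusted p = 0.0636). A second, dimmer probe of Mmp14 gave strain differences of -1.22 at 11 weeks (adjusted p = 0.0557 over probes) and -0.60 at 4 weeks (adjusted p = 0.351 over probes), against -0.08 and 0.57 on the brighter one, so the probes disagreed in sign at 4 weeks. With all probes averaged, Mmp14 was lower in KKAy at 11 weeks (-0.65, adjusted p = 0.00632) and lower at 11 weeks in KKAy (-0.93, adjusted p = 0.00263). Mmp15 had levels of 0.48 and 0.36 in KKAy and -0.21 and -0.36 in C57BL/6J at 11 weeks, and of -0.07 and -0.18 in KKAy and -0.72 and -0.80 in C57BL/6J at 4 weeks. It was the 1 Mmp gene higher in KKAy, by 0.71 ± 0.11 (SE) at 11 weeks (adjusted p = 0.00843) and 0.63 at 4 weeks (adjusted p = 0.0161), and it was higher at 11 weeks in KKAy by 0.55 (adjusted p = 0.024). The first call was lost without C57BL/6J 11-week replicate 2 (0.0721), the second without any of the 4 arrays of that age (0.0634 to 0.098), and the third without any 1 of the 8 arrays (0.05 to 0.125). Mmp17, Mmp19 and Mmp23 passed in no comparison, although a second probe of Mmp17 was lower at 11 weeks in KKAy (-1.18, adjusted p = 0.019 over probes).

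Of the 4 inhibitors, Timp1 was higher and Timp3 lower in KKAy at 11 weeks, and 0 passed at 4 weeks, where 1 had an unadjusted p under 0.05. The calls at 11 weeks were 50% of the 4, against 21.5% of all genes. Timp1, the secreted inhibitor that rises when stellate cells are activated, had levels of 1.14 and 1.49 in KKAy and 0.26 and 0.36 in C57BL/6J at 11 weeks, and of 0.25 and 0.62 in KKAy and -0.11 and 0.43 in C57BL/6J at 4 weeks. The 2 KKAy arrays at 11 weeks were above the other 6, which overlapped among themselves. The strain difference was 1.01 ± 0.24 (SE) at 11 weeks (adjusted p = 0.0316), a call lost without any of the 4 arrays of that age (0.0532 to 0.16), and 0.27 at 4 weeks (adjusted p = 0.566).

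Timp3, which binds to the matrix and also blocks shedding proteases of the ADAM family, had levels of 0.42 and 0.46 in KKAy at 11 weeks, against 1.16 and 1.15 in C57BL/6J at 11 weeks, and of 0.87 and 0.98 in KKAy at 4 weeks, against 0.98 and 1.06 in C57BL/6J at 4 weeks. KKAy at 11 weeks was the group that stood apart. Between strains it differed by -0.71 ± 0.10 (SE) at 11 weeks (adjusted p = 0.00511; 0.0504 without C57BL/6J 11-week replicate 1), and the difference between ages in KKAy was -0.49 (adjusted p = 0.0227), lost without any array except the 2 C57BL/6J 4-week arrays (0.0657 to 0.126). The interaction was -0.62 (adjusted p = 0.0792) and did not pass.

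Timp2, which both blocks Mmp2 and helps Mmp14 activate it, had levels of 1.67 and 2.37 in KKAy and 1.07 and 1.45 in C57BL/6J at 11 weeks, and of 2.16 and 2.71 in KKAy and 1.28 and 1.74 in C57BL/6J at 4 weeks. KKAy was higher on every array of each age, but the SD between replicates reached 0.50, with replicate 1 below replicate 2 in all 4 groups, and the differences of 0.76 (adjusted p = 0.164) and 0.93 (adjusted p = 0.127) did not pass. Timp4, an inhibitor known mainly from heart, had levels of -5.37 and -4.63 in KKAy and -5.35 and -5.24 in C57BL/6J at 11 weeks, and of -4.37 and -4.55 in KKAy and -4.78 and -4.49 in C57BL/6J at 4 weeks. It was not well above background on any 11-week array and passed in no comparison.

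The strain difference itself changed with age in 4 genes (8.33%, against 3.78% of all genes tested; 2.05% higher and 1.72% lower), by the test of the interaction, the difference at 11 weeks minus that at 4 weeks. The interaction was 2.10 ± 0.16 (SE) for Col27a1 (adjusted p = 0.00378), 2.08 ± 0.23 for Col5a3 (adjusted p = 0.0111), 1.01 ± 0.14 for Col3a1 (adjusted p = 0.02) and -1.01 ± 0.18 for Mmp7 (adjusted p = 0.0435). The 3 collagens are fibrillar, and for them KKAy stood above C57BL/6J (Col3a1, Col27a1) or did not differ from it past the threshold (Col5a3) at 11 weeks, and stood below it at 4 weeks. For Mmp7 the KKAy arrays at 11 weeks were not well above background, and with the 11-week difference at its bound the interaction was -0.99. The strain, age and interaction values of a gene are computed from the same arrays and are not independent of each other. The call for Col27a1 passed with any single array left out, that for Col5a3 was lost without either C57BL/6J 11-week array, KKAy 4-week replicate 2 or C57BL/6J 4-week replicate 1 (0.0507 to 0.0759), and those for Col3a1 (0.0589 to 0.125) and Mmp7 (0.0666 to 0.198) were lost without any 1 of the 8 arrays. With normexp the interaction was 1.03 for Col27a1 (adjusted p = 0.0916) and -0.25 for Mmp7 (adjusted p = 0.905). The Col27a1 call was also lost with all probes averaged. Its second probe alone gave an interaction of 0.90 (adjusted p = 0.497 over probes).

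**Figure D5:**
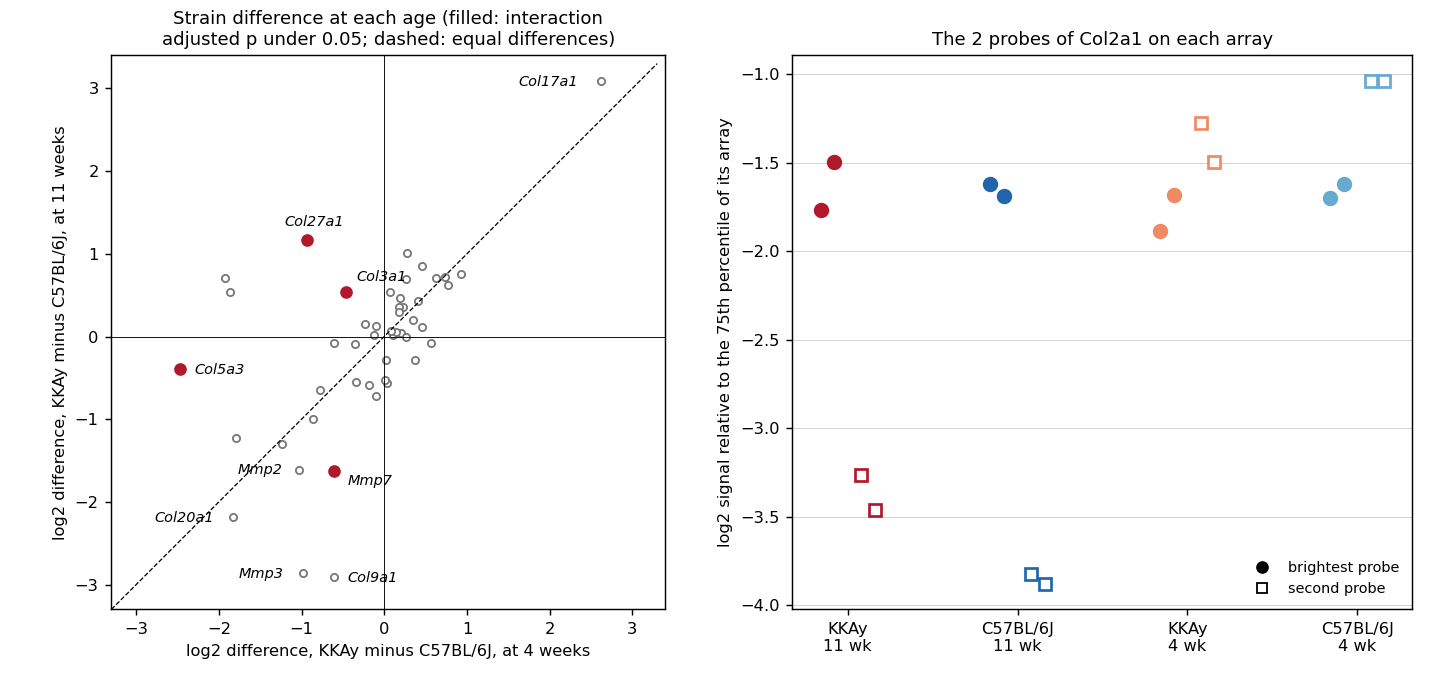
Left, log2 difference, KKAy minus C57BL/6J, at 11 weeks (vertical axis) against 4 weeks (horizontal axis) for the 48 genes; filled points passed the interaction at an adjusted p of 0.05, and the dashed line marks equal differences. Right, the 2 probes of Col2a1 on each array, in log2 processed signal relative to the 75th percentile: the brighter stayed between -1.88 and -1.50, while the second lay between -3.88 and -3.27 at 11 weeks and between -1.50 and -1.04 at 4 weeks.

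Among the enzymes that fold, trim and cross-link collagen, more passed as lower than as higher at 11 weeks in both strains. Of 26 measured of 29 listed, 4 were higher and 4 lower in KKAy at 11 weeks, 1 higher and 5 lower at 4 weeks, 1 higher and 9 lower at 11 weeks in KKAy, and 0 higher and 8 lower at 11 weeks in C57BL/6J, with medians of -0.14, -0.04, -0.21 and -0.31. Of all genes, 9.94% were higher and 11.6% lower in KKAy at 11 weeks, and 6.37% and 9.01% at 4 weeks. Between ages these shares were 7.91% and 10.7% in KKAy, and 1.9% and 6.46% in C57BL/6J. Serpinh1, the collagen chaperone Hsp47, was lower in KKAy at both ages (-0.66 and -0.89) and lower at 11 weeks in both strains (-0.79 in KKAy and -1.02 in C57BL/6J). Loxl2, a cross-linking oxidase, differed between ages by -1.64 in KKAy and -1.48 in C57BL/6J. Sparc, a collagen-binding matricellular protein, differed by -2.19 and -2.20, and Fkbp10, a collagen prolyl isomerase, by -1.40 and -1.20, all past the threshold. Colgalt2, a collagen galactosyltransferase, was higher in KKAy by 2.63 at 11 weeks (adjusted p = 0.000106) and 2.16 at 4 weeks (adjusted p = 0.000233).

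Other matrix genes were lower in KKAy at 11 weeks more often than higher. Of 33 measured of 40 listed, 2 were higher and 14 lower in KKAy at 11 weeks (median -0.47), and 2 higher and 5 lower at 4 weeks (median -0.23). Between ages, 1 was higher and 17 were lower at 11 weeks in KKAy (median -0.74), against 0 higher and 7 lower in C57BL/6J (median -0.37). Over all genes, 21.5% were called between strains at 11 weeks and 15.4% at 4 weeks. Between ages, 18.6% of all genes were called in KKAy and 8.36% in C57BL/6J. Lum and Dcn, small proteoglycans that coat collagen fibres, had log2 differences of -2.21 and -0.87 in KKAy at 11 weeks, and Nid2, a basement membrane linker, of -1.48, all past the threshold, while Fbln2, an elastic fibre and basement membrane protein, was higher by 2.23. Lama3, a laminin chain, had an interaction of 2.08 (adjusted p = 0.0359).

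Of 9 collagen receptors, 3 were lower in KKAy at 11 weeks, among them the receptor kinase Ddr2 (-0.84, adjusted p = 0.0126), and 1 was higher and 1 lower at 4 weeks. Of 20 other matrix proteases and inhibitors measured of 23, 2 were higher and 2 lower in KKAy at 11 weeks, and 1 higher and 2 lower at 4 weeks. Lcn2, which binds Mmp9 and shields it, was higher in KKAy by 4.62 at 11 weeks and 3.12 at 4 weeks. Of 26 genes of TGF-beta and PDGF signalling, 1 was higher and 6 were lower in KKAy at 11 weeks, and 1 higher and 1 lower at 4 weeks. Over all genes, 21.5% were called between strains at 11 weeks and 15.4% at 4 weeks. No list was tested against these shares. Ccn2, a connective tissue growth factor induced by TGF-beta, was lower in KKAy at 11 weeks (-1.59, adjusted p = 0.00441), as were the PDGF receptors Pdgfra (-0.79, adjusted p = 0.0319) and Pdgfrb (-0.90, adjusted p = 0.0272).

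Markers of the cells that could carry these transcripts also differed, and their part in the results was not tested. Beside the marker counts here and in the next paragraph, 21.5% of all genes were called between strains at 11 weeks and 15.4% at 4 weeks. Between ages, 18.6% of all genes were called in KKAy and 8.36% in C57BL/6J. Summed levels below are linear signal over each array's 75th percentile. Since probes differ in brightness, a sum follows its brightest markers most and does not measure how abundant a cell type is. The brightest include Colec10 and Colec11 for stellate cells, Cd5l for macrophages and Clec4g for endothelium. Of 13 stellate cell markers, 2 were lower in KKAy at 11 weeks and 0 passed at 4 weeks (2 with an unadjusted p under 0.05), while 5 were lower at 11 weeks in KKAy and 1 in C57BL/6J; their summed level was 28.1 to 33.1 in KKAy and 27.6 to 29.8 in C57BL/6J at 11 weeks, and 35.6 to 42.8 in KKAy and 34.8 to 39.3 in C57BL/6J at 4 weeks. Of 8 portal fibroblast and mesothelial markers measured of 9, 5 were higher in KKAy at 11 weeks and 1 at 4 weeks, with sums of 19.2 to 29.1 in KKAy against 9.9 to 12.6 in C57BL/6J at 11 weeks, and 14.2 to 20 in KKAy against 10.9 to 15.4 in C57BL/6J at 4 weeks. Between ages, 1 was higher and 2 were lower at 11 weeks in KKAy (median 0.08), and 3 were lower in C57BL/6J (median -0.90). Fbln2 and Eln stand on this list and on that of other matrix genes. Pdgfrb stands among the stellate cell markers and among the genes of TGF-beta and PDGF signalling.

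Of the 12 markers of Kupffer cells and macrophages, 7 were lower in KKAy at 11 weeks and 11 at 4 weeks, and 8 were lower at 11 weeks in KKAy and 11 in C57BL/6J. Their summed level was 47.2 to 49.4 in KKAy and 79 to 84.1 in C57BL/6J at 11 weeks. At 4 weeks it was 76.3 to 84.7 in KKAy and 187 to 216 in C57BL/6J. The macrophage sums were thus lower in KKAy at both ages and lower at 11 weeks in both strains. The same held for the 11 lymphocyte markers, 6 of them well above background on all 8 arrays, with sums of 0.881 to 0.939 in KKAy and 1.28 to 1.3 in C57BL/6J at 11 weeks, and 1.35 to 1.42 in KKAy and 2.81 to 3.12 in C57BL/6J at 4 weeks; 5 were lower in KKAy at 11 weeks and 6 at 4 weeks, and 6 were lower at 11 weeks in KKAy and 5 in C57BL/6J. Of 5 cholangiocyte markers measured of 6, 1 was lower in KKAy at each age. Of 5 neutrophil markers measured of 10, 2 were higher in KKAy at 11 weeks and 1 at 4 weeks. Of 11 endothelial markers, 2 were higher and 2 lower in KKAy at 11 weeks, and 5 were lower at 11 weeks in KKAy, with sums of 47.4 to 48 in KKAy and 40.1 to 41.7 in C57BL/6J at 11 weeks, and 65.1 to 68.6 in KKAy and 48 to 48.8 in C57BL/6J at 4 weeks. Hepatocyte markers, 7 measured of 8, were well above background on all 8 arrays, with sums of 1671 to 1758 in KKAy and 2088 to 2168 in C57BL/6J at 11 weeks, and 1622 to 1785 in KKAy and 1513 to 1938 in C57BL/6J at 4 weeks. Of these 7, Apoa1 (-1.03), Tat (-0.87) and Cps1 (-0.91) were lower and Ttr (0.53) was higher in KKAy at 11 weeks, and 1 was lower at 4 weeks.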

How the data were processed

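Liver RNA of 2 mouse strains (KKAy, C57BL/6J), each at 11 and 4 weeks, was measured on 8 one-colour Agilent arrays, 2 per group; groups and replicate numbers came from the labels. The authors extracted spot intensity, with its background subtracted, by Agilent Feature Extraction 9.5.1.1, per the file headers. The deposited value table holds log2 values that equal the log2 processed signal minus 1 constant per array (within 0.001 for 99.6% of probes, column medians -3.96 to -3.67) and served as an alternative.

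Repeated spots of a probe were averaged, 59 to 89 non-uniform or outlier spots per array were left out, no spot was saturated (0 on each array), and log2 processed signal was set relative to each array's 75th percentile. A probe passed if both arrays of some group, 1 or more, read it well above background (25319 of 41174), and the brightest probe stood for its gene. A group-means model over the 8 arrays (limma 3.58.1, R 4.3.3; lmFit, then eBayes) had 4 residual and 1.927 prior degrees of freedom, with Benjamini-Hochberg adjustment across 17107 genes and a threshold of 0.05. The procedure was tested on simulated data. The number of arrays limits the precision.

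The genes and lists were chosen with earlier results of these data known. Values on every array are given for the Timp genes, Mmp2, Mmp9, Mmp14, Col1a1, Col1a2, Col3a1, Col4a1, Col4a2, genes with an interaction, and in each comparison up to 8 genes with the largest difference past the threshold; Col2a1, Col4a4, Col6a1, Col6a3 and Mmp15 were added after their values were seen. Alternatives were normexp background correction with an offset of 50, quantile normalization, scaling to 7 spike-in probes, the deposited table, other filters, all probes averaged or each alone, the replicate number as a block, the 4 arrays of an age alone, and each array left out. Python 3.11.15 with pandas 2.3.3, numpy 2.4.6 and matplotlib 3.10.9 prepared tables and figures.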

Additional observations from a re-analysis of the deposited data

Results flagged for a closer look

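In 4 genes the strain difference, KKAy minus C57BL/6J, was not the same at the 2 ages by the test of the interaction. It was larger at 11 weeks than at 4 weeks by 2.1028 on the log2 scale for Col27a1, by 2.0768 for Col5a3 and by 1.0062 for Col3a1, and for Mmp7 the difference of the differences was -1.0125, a value that rests on KKAy arrays at 11 weeks not well above background (-0.99 with the 11-week difference at its bound). Of these, Col27a1 passed the threshold in each of the 8 fits that left out 1 array, Col5a3 in all but 4 of them, and Col3a1 and Mmp7 in 0 of 8. The Col27a1 call was lost with normexp and with all probes averaged.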

How the results depend on the processing

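No called difference of a named gene changed sign under any setting run (0 reversed). Of 46 such differences, 17 stayed past the threshold under every alternative other than another probe: the differences between ages of Col1a1, Col1a2, Col3a1, Col5a1, Col5a2 and Mmp2 in both strains, those of Col27a1 and Col5a3 in KKAy, and the strain differences of Mmp2 and Col27a1 at 11 weeks and of Col5a3 at 4 weeks. The deposited table kept all 46, quantile normalization 44, all probes averaged 42, spike-in scaling 36, no filter 33 and normexp 28; the cause was not tested. The number of the 48 genes called moved from 16 to 9 with normexp at 11 weeks, from 11 to 5 at 4 weeks, and from 4 to 2 for the interaction. Without a filter it was 6 at 4 weeks and 2 for the interaction, where more genes were tested. With probes well above background on all 8 arrays it was 7 at 4 weeks, and with the 4 arrays of that age alone 7. Spike-in scaling put the median difference of all genes at 4 weeks at 0.37, against 0.01, and called 9 genes there, 5 higher and 4 lower in KKAy, against 2 higher and 9 lower, and it gave 2 for the interaction. It also moved that median to 0.125 at 11 weeks, -0.175 between ages in KKAy and -0.22 for the interaction, so the Col3a1 difference at 4 weeks was then -0.11 and its interaction 0.78. With each array left out in turn the count was 8 to 14 at 11 weeks, 6 to 12 at 4 weeks, 11 to 16 between ages in KKAy, 7 to 10 in C57BL/6J and 1 to 2 for the interaction. The labels give replicates 1 and 2 in each group without saying that a number marks a shared batch. Same-numbered arrays deviated together (correlations of 0.53 to 0.672 over 17096 genes), and with the replicate number as a block 28, 29, 29, 22 and 16 of the 48 genes were called in the same order of comparisons, beside 9385, 7484, 9121, 5780 and 5284 of all genes, against 3677, 2631, 3184, 1430 and 646 without it. All 46 called differences of named genes passed with the block, which also called Col4a2, Col6a1 and Timp2 between strains at both ages (adjusted p = 0.000671 to 0.00211). Signal over background limits Col4a5, Col9a1, Col17a1, Col20a1, Mmp3, Mmp7, Mmp9 and Timp4, whose groups not well above background on either array have bounds only, and Col17a1 in C57BL/6J at 4 weeks, measured on 1 of 2 arrays.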
